A study of Mus musculus with 10 samples.

Results

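This account covers the genes named for motile cilia and their motors in epididymal white adipose tissue (eWAT) of mice given desferrioxamine (DFO), an iron chelator. They were chosen by gene name from the annotation of the array. The names were those of the dynein heavy chains (*Dnahc*), the dynein intermediate and light chains (*Dnaic*, *Dnali1*, *Dynlrb2*), the tektins (*Tekt*), the radial spoke head genes (*Rsph*), the sperm associated antigens (*Spag*), the intraflagellar transport genes (*Ift*) and *Foxj1*. This gave 84 probes of 54 genes, of 55681 probes and 34797 gene names in all. The family was put forward because earlier results of these data had shown high values in mouse 2, so values of that mouse are given below as a description, with no test.

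Each of the 10 arrays measured eWAT of 1 male mouse, C57BL/6JOlaHsd by the protocol and C57BL/6J by the sample's strain label. The mice, aged 9 weeks at the start by the design text, were fed a low fat diet for 3 weeks and a high fat diet for 12 weeks at 29°C. They were then injected with DFO at 100 mg/kg on 5 consecutive days and killed on the day after, with food removed for 2 h. All 10 mice form 1 group, and mice are named by their replicate number. The RNA of each mouse was labelled with Cy5 and hybridised against a Cy3-labelled pool of RNA from all mice of the wider study, its control mice and these 10 mice included. The pool was a common reference and no control group, dyes were not swapped, and no ratio was tested against 0. Nothing in the labels says whether mice shared a cage or litter, so p-values measure the spread between these samples.

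The median Cy5 brightness of an array was 54.8 to 81.3, its local background had a median of 32 to 37, and no spot was saturated. The number of probes well above background, as the scanner software flagged them, was 30515 in mouse 2 and 24894 to 28649 in the other mice. Of 11 adipocyte genes, all 11 were above background in 9 mice and 10 were in mouse 9, so the labelled tissue carried its markers. The arrays came from 5 slides that held 2 each, and mouse 2 shared its slide with mouse 1.

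Motile cilia are hair-like cell extensions that beat. Their core, the axoneme, is a ring of microtubule doublets around a central pair, and outer and inner dynein arms, built from heavy, intermediate and light chains, slide the doublets against each other. Radial spokes pass signals from the central pair to the arms, tektins are filaments inside the doublets, and intraflagellar transport carries parts to the tip of both motile and non-motile (primary) cilia. FOXJ1 is a forkhead transcription factor that switches on the genes of motile cilia in multiciliated cells, and RFX factors bind the X-box in promoters of cilia genes. Multiciliated cells line airways, brain ventricles, oviducts and the efferent ducts between testis and epididymis, and sperm tails use the same axoneme. Fat cells are not known for motile cilia.

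The probes that carry the values are 60 bases long, and the first 30 bases of 5 that the results turn on are shown, 5′ to 3′, with positions on mm9, the build of the array's annotation. Both probes of *Tekt1* lie on the minus strand of chromosome 11 and are 23 bases apart, so they read neighbouring stretches of 1 transcript. The *Foxj1* probe (chr11:116192214-116192273, minus strand), the *Dynlrb2* probe (chr8:119039711-119039770, plus strand) and the *Dnahc5* probe (chr15:28401496-28401555, plus strand) stand for genes that were dim in most mice. Whether a probe lies in coding sequence or in a UTR was not analysed here.
Tekt1 at chr11:72158314-72158373: tatatcgaccaggtgctgtgtatggagatg
Tekt1 at chr11:72158231-72158290: catccgcgcagaggccatctgctgatagga
Foxj1: ggagagactaatatagtgaatgtagttata
Dynlrb2: gagatgtgttctcctgttttgacaatggaa
Dnahc5: taggtctgattactagctgtagtttctttt

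Of the 54 genes, 49 were matched to a RefSeq gene (GRCm38.p6) and 40 of them had a promoter sequence there, 44 promoters in all, each from 250 bases before to 50 bases after the start. Motifs and the promoters shown were chosen after the values had been seen. The X-box was searched on both strands as GTNNCC, then 3 bases of any kind, then GNAAC, and was found in 6 of the 44 promoters (13.6%), against 2.17% of 32851 RefSeq promoters of the same length. The 6 belonged to *Tekt4*, *Ift57*, *Spag16*, *Spag5*, *Spag6* and *Dnahc17*. A forkhead motif, TGTTTAC on both strands, was found in 2 of the 44 (4.55%), those of *Dnahc17* and *Tekt3*, against 3.65% of all promoters. A match describes the letters and is not a shown binding site. The promoters of 3 genes with an X-box match are printed, with the match in capitals. They were picked from the classes of tektins, intraflagellar transport and sperm associated antigens, and the *Tekt4* promoter holds the match at 2 places.
Tekt4 (chr17:25471340-25471639, plus strand, GRCm38.p6): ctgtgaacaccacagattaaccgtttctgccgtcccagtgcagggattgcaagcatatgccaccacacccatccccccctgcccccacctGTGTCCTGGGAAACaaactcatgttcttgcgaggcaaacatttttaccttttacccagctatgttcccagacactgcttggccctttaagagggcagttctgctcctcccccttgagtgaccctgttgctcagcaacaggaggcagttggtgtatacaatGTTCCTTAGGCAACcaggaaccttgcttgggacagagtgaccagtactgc
Ift57 (chr16:49699044-49699343, plus strand, GRCm38.p6): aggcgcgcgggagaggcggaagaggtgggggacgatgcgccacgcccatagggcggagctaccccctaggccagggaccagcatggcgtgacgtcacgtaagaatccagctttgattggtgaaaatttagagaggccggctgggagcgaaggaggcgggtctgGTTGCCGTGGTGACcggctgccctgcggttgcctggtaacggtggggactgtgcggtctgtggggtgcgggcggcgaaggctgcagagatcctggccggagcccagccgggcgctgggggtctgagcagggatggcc
Spag16 (chr1:69826720-69827019, plus strand, GRCm38.p6): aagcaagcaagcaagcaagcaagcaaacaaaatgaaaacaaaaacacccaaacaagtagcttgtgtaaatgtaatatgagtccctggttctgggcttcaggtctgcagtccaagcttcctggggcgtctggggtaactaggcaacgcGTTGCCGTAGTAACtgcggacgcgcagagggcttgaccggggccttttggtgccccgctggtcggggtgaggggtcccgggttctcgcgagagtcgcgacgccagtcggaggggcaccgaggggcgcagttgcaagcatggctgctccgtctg

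Many of the axonemal genes were at or near background in eWAT of 9 of the 10 mice. Of the 84 probes, 28 had Cy5 well above background on all 10 arrays, 35 on 1 to 9 arrays and 21 on 0. Mouse 2 had 56 of the probes above background, while the other mice had 29 to 36. Of these, 19 probes were above background in mouse 2 only, where each other mouse had 0 or 1 such probe. Over all probes 2.26% were above background in mouse 2 only (1256 of 55681). Each other mouse had 119 to 483 such probes over the whole array (0.21% to 0.87%). Of these 19 probes, 12 were dynein probes, 4 radial spoke probes and 3 sperm associated antigen probes. No probe of the tektins, of *Ift* genes or of *Dynlrb2* was among them. The Cy3 pool was above background on all 10 arrays for 34 of the 84 probes and on 0 arrays for 37. The genes whose probes all stayed at background in Cy5 on every array were *Dnahc3*, *Rsph6a*, *Spag8*, *Spag11a*, *Spag11b*, *Spag17*, *Tekt3* and *Tekt5*.

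**Figure D1:**
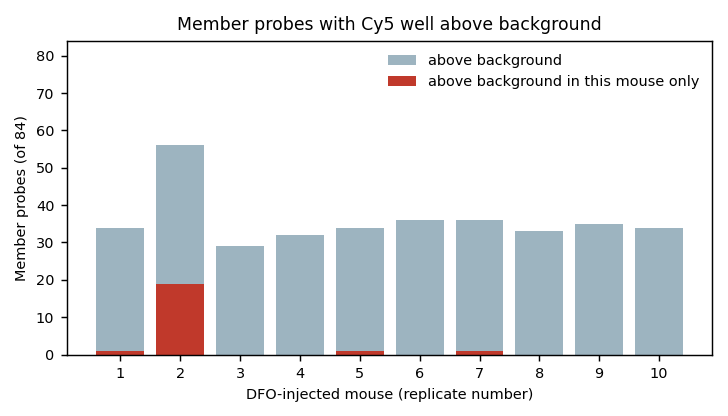
Number of the 84 cilia gene probes with Cy5 well above background in each of the 10 mice (grey) and of those above background in that mouse alone (red). Mouse 2 had 56, of which 19 in this mouse only, and the others had 29 to 36.

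In mouse 2 the log2 ratio of *Foxj1* was 1.95, while the other 9 mice lay between -1.72 and -1.38 with a median of -1.63. Its Cy5 brightness, before any correction, was 1757 in mouse 2 and 43.3 to 74.2 in the others, where the median background was 35. The probe was above background in mice 2, 5, 7 and 9, so that 3 of the other 9 mice measured it. Mouse 2 therefore stood far above all other mice, which did not overlap with it. The difference of 3.58 from their median on the log2 scale (12.0-fold) is taken against values close to background. It was 5.72 with the log ratio of the scanner software and 4.32 with the deposited values, so the size of the fold depends on the scaling. The pool gave 166 to 222 in Cy3 on the other arrays and was brighter on the array of mouse 2, by 0.55 on the log2 scale after normalization.

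The dynein heavy chains are the motors of the arms. Of 17 dynein arm genes measured with 33 probes, 4 were expressed, which here means that Cy5 passed the background on 5 arrays or more. *Dnahc6*, an inner arm heavy chain, reached a log2 ratio of 1.85 in mouse 2, against -1.06 to -0.70 elsewhere. Its difference from their median was 2.80 (6.99-fold), or 3.53 with the scanner's log ratio, and no other mouse reached the pool. *Dnahc7b*, another inner arm heavy chain, reached 1.37 in mouse 2, against -0.59 to -0.20, a difference of 1.65, or 2.40 with the scanner's log ratio. *Dnaic1*, an intermediate chain of the outer arm, was at 0.46 in mouse 2, against -0.18 to 0.17, a difference of 0.48 that was much smaller than those of these heavy chains. *Dnaic2*, named after its values had been seen, was above background in mice 2, 6, 7 and 9 and not counted as expressed. It was at 1.13 in mouse 2, against -0.39 to 0.04, a difference of 1.36. *Dnahc8*, which is known from sperm, had no value in mouse 2 because the spot was flagged as an outlier, and lay between -0.17 and 0.32 in the other mice. *Dnahc7a* and *Dnahc7b* are near-identical copies, so their probes may share transcripts.

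Several other dynein genes were read as bounds, because Cy5 was above background in mouse 2 and not in the other 9 mice. All bounds given here compare Cy5 alone, without the Cy3 pool, and are not bounds on the ratio to the pool. The genes of these bounds, and those whose raw brightness is given, were named after their values had been seen. *Dnahc5*, an outer arm heavy chain whose loss causes immotile cilia, was at least 8.20-fold higher in mouse 2. Its brightness was 729 in mouse 2 and 34.4 to 43.9 in the other mice, where the background was 33, while the pool gave 90.5 to 112 on the other arrays. *Dnahc11* was at least 4.62-fold and *Dnahc10* at least 4.36-fold higher in mouse 2. *Dnali1*, an inner arm light chain, was at least 6.38-fold higher. By the ratio to the pool the same probes were 3.80-fold, 4.08-fold and 5.34-fold higher, below their Cy5 bounds. *Dnahc5* was 8.53-fold higher by the ratio, above its bound. *Dnahc12* had a lower bound of 2.28-fold on its brightest probe and of 1.36-fold and 1.33-fold on its other probes. *Dnahc2* was above background in mice 2 and 6, at a log2 ratio of 1.70 in mouse 2, against -0.69 to -0.36 elsewhere. Another *Dnahc10* probe did not show the difference. It was above background in mice 2, 4, 6 and 7 and lay at 0.04 in mouse 2, within the range of -0.17 to 0.33. Other heavy chains were not raised in mouse 2 either. *Dnahc17* was above background in mice 1, 8 and 10 on 1 of its 4 probes, *Dnahc1* in mice 5 and 6 and *Dnahc14* in mouse 1, and none of their probes, nor that of *Dnahc3*, was above it in mouse 2. *Dnahc6* likewise had a second probe at background in mouse 2, with a brightness of 45.9 against 43.7 to 66.4 in the other mice.

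*Dynlrb2*, a light chain of the roadblock family that cytoplasmic dynein also uses, had the widest range of the family. Its log2 ratio was 2.01 in mouse 2, where the other 9 mice lay between -2.30 and -1.50, a difference of 3.83 from their median (14.2-fold), or 4.84 with the scanner's log ratio. Its brightness was 3037 in mouse 2 and 64.2 to 145 in the others, with Cy5 above background on all 10 arrays.

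The tektins gave 3 expressed genes, and all 3 were highest in mouse 2, against 11.5% of all expressed genes. *Tekt1* had log2 ratios of 1.62 and 1.44 in mouse 2 on its neighbouring probes, with differences of 2.22 and 2.11 from the median of the other mice. *Tekt4* reached 1.00 there, against -0.46 to -0.10 in the rest. *Tekt2* was at 0.23 there, against -0.57 to -0.02, so that its difference of 0.50 was smaller.

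Radial spoke head genes differed among themselves. *Rsph1* reached a log2 ratio of 2.03 in mouse 2, against -1.17 to -0.60 elsewhere. The difference of 2.99 (7.97-fold) was 4.33 with the scanner's log ratio and 3.58 with the deposited values. Its dimmer probe, above background in mouse 2 only, was at 0.45 there, against -0.39 to -0.14. In Cy5 this probe was at least 1.82-fold higher. *Rsph9* had 1.18 in mouse 2, against -0.62 to 0.20. *Rsph4a* was above background in mouse 2 only and was at least 3.89-fold and 3.65-fold higher there in Cy5 on its 2 probes. By the ratio to the pool they were 3.49-fold and 3.70-fold higher. *Rsph3a*, in contrast, had 0.04 in mouse 2 within the range of -0.11 to 0.14 of the others, and its second expressed probe gave a difference of 0.28. *Rsph3b* was at 0.05 there, against -0.50 to 0.02. *Rsph3a* and *Rsph3b* are near-identical copies, so their values are uncertain. RSPH1, RSPH4A and RSPH9 form the head of the spoke and RSPH3 lies in its stalk.

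The sperm associated antigens share a name and not a function. *Spag6*, of the central pair, was at least 5.54-fold higher in mouse 2 in Cy5. *Spag16*, also of the central pair, was at least 2.80-fold higher on the brightest of its probes. By the ratio to the pool these probes were 4.88-fold and 2.83-fold higher. *Spag5*, a protein of the mitotic spindle, had -0.17 in mouse 2, which was the median of the other mice. *Spag9*, a scaffold of kinase signalling, was at -0.15 there, within the range of -0.41 to 0.01. *Spag7* was at 0.53 there, within the range of 0.31 to 1.01. The first 30 bases of its probe are a repeat of GT, so its value is uncertain, and whether other transcripts add to it was not tested. *Spag4*, a protein of the nuclear envelope, was above background in 5 mice but not in mouse 2. None of the 4 expressed genes was highest in mouse 2, against 11.5% of all expressed genes. The probes of *Spag11a* and *Spag11b*, which code for defensin-like proteins of the epididymis, were not well above background in Cy5 on any array. In Cy3 this held too, except for 1 *Spag11b* probe on 1 array.

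The 12 *Ift* genes were all expressed, and their differences in mouse 2 were small. The difference from the median of the other mice lay between -0.04 and 0.87 with a median of 0.38. Of the 12, 9 were highest in mouse 2, against 11.5% of all expressed genes. On the log2 scale 0 of 12 differed by 1 or more, against 1.78% of all expressed genes. *Ift88*, of the complex B that moves towards the tip, was at 0.70 in mouse 2, against -0.53 to 0.11 elsewhere. *Ift81* and *Ift74*, which bind tubulin as a pair, had 0.54 and 0.63 in mouse 2 against -0.75 to 0.12 and -0.38 to 0.25. A second *Ift74* probe had a difference of -0.06, so the probes of this gene disagree. *Ift57* was at 0.43 there, against -0.40 to 0.26. *Ift122*, of the complex A that returns to the base, had 0.35 against -0.61 to 0.31 on its brighter probe, and its other probe gave a difference of 0.33. *Ift52* varied least, at 0.06 in mouse 2 against -0.13 to 0.03, and its sign turned to -0.04 when log2 Cy5 was taken in place of the ratio.

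**Figure D2:**
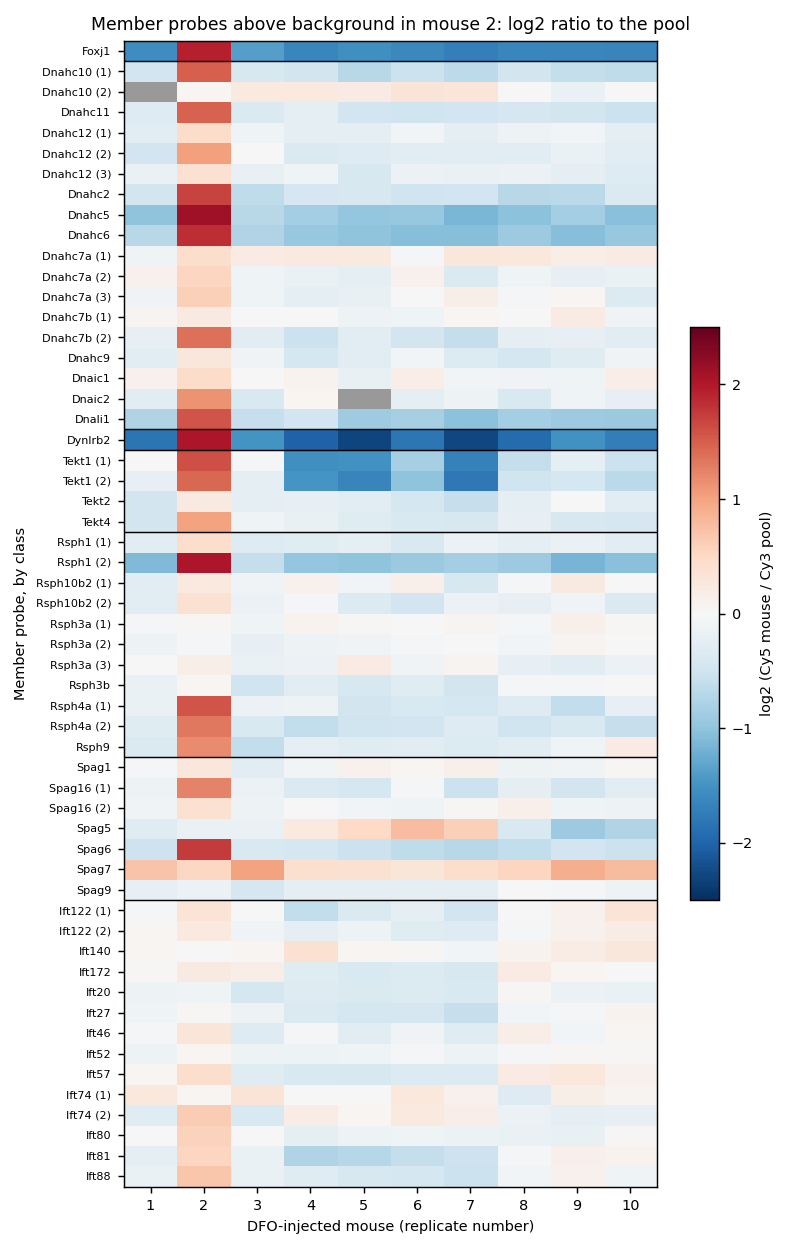
Log2 ratio of Cy5 (mouse) over Cy3 (pool) for the 56 probes above background in mouse 2, by class from top to bottom and by mouse from left to right. Grey cells are spots that were flagged as outliers, and numbers in brackets tell probes of a gene apart. Mouse 2 stood out in *Foxj1*, *Dynlrb2*, *Dnahc5*, *Tekt1*, *Spag6*, *Rsph1* and the *Dnahc6* probe shown. The 2 *Rsph1* probes were at 2.03 and 0.45 there. Mouse 2 did not stand out in every dynein probe: the second *Dnahc10* row was at 0.04, within the range of the others.

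Over all expressed genes of the family, 19 of the 27 with a value in every mouse were highest in mouse 2. Over all 20202 expressed genes, 11.5% were. In 7 of the 27 the difference was 1 or more on the log2 scale, against 1.78% of all genes, and in 6 it was above every other mouse by more than 1, against 1.0%. The median difference over the genes was 0.48 in mouse 2 and -0.19 to 0.12 in the other mice, against 0.02 over all genes in mouse 2. By class it was 3.83 for *Dynlrb2*, 1.65 for the dyneins, 1.38 for the tektins, 0.89 for the radial spokes, 0.38 for the *Ift* genes and -0.01 for the sperm associated antigens. Since the family was put forward for this pattern, these counts carry no test. A bulk sample cannot tell a larger number of ciliated cells from more RNA in each of them.

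The rise lay in Cy5, the dye of the mouse's own RNA. In the 20 probes with a difference of at least 1, from 18 genes, Cy5 was 1.32 to 4.41 above the median of the other arrays, with a median of 2.21. Cy3 on the same array was -0.03 to 0.56 above, with a median of 0.13, and was above 0 in 17 of the 20. In the other 63 probes with a value it had a median of -0.04, with 22 above 0, which was close to -0.05 over all expressed probes. The 2 probes with the largest Cy5 differences, *Dynlrb2* and *Foxj1*, had the largest Cy3 differences too (0.56 and 0.55). The pool is the same RNA on all arrays, and the part of the Cy3 shift in the ratios, which it lowers, was not tested.

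**Figure D3:**
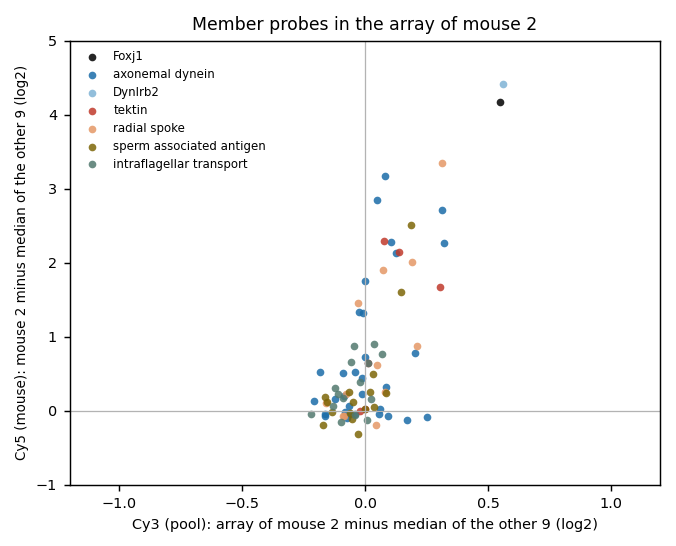
Difference of the array of mouse 2 from the median of the other 9 arrays for each cilia gene probe, in Cy3 (pool, x axis) and Cy5 (mouse 2, y axis), both log2 after normalization between arrays, coloured by class. Cy5 differences reached 4.41 and Cy3 differences stayed at or under 0.56.

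Whether the genes also varied among the other 9 mice, which the choice of the family did not use, was tested by comparing the variance of Cy5 with that of Cy3 for each probe. The exact permutation test swapped the dyes within arrays (two-sided, Benjamini-Hochberg over all probes). Of the 30 probes tested, 14, from 13 of 26 genes, varied more in Cy5 between the mice, and 0 varied more in Cy3. Over all 25056 probes tested 50.5% varied more in Cy5, so the family was close to this background. Cy3 varied more in 0.144% of all probes. With 9 mice the smallest exact p was 0.0039. The count depended on the normalization. It fell to 5 of 30 with median centring in place of loess, where 34.2% of all probes passed, and to 0 without normalization between arrays, where 0% of all probes did and 7 of the 30 passed without adjustment.

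Of the 13 genes that passed, 8 were of intraflagellar transport. Of the *Ift* genes 8 of 11 varied more in Cy5 than in Cy3, and of the radial spoke genes 2 of 4 did. Of the tektins 1 of 3, of the sperm associated antigens 1 of 3 and of the dyneins 0 of 4 did. Over all probes 50.5% did, and no class was tested against this share. *Dynlrb2* passed as well, with a Cy5 SD of 0.28 against 0.09 in Cy3 (n = 9, exact permutation test, adjusted p = 0.0134). The largest Cy5 SDs in the family were those of *Tekt1* and *Spag5*. For *Tekt1* the Cy5 SD was 0.68 on both probes against 0.07 and 0.12 in Cy3 (n = 9, exact permutation test, adjusted p = 0.0134 and 0.0202).

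*Tekt1* also differed among the mice other than mouse 2. Its log2 ratio on the first probe was -1.54 in mouse 4, -1.52 in mouse 5, -0.83 in mouse 6 and -1.69 in mouse 7. In the mice other than these 4 and mouse 2 it was -0.60 to 0.00. *Spag5* showed the opposite order, with a ratio of 0.24 in mouse 4, 0.50 in mouse 5, 0.78 in mouse 6 and 0.60 in mouse 7, with -0.91 to -0.17 elsewhere. Here the Cy5 SD was 0.65 against 0.08 in Cy3 (n = 9, exact permutation test, adjusted p = 0.0134). *Ift81* had -0.75, -0.71, -0.60 and -0.53 in mice 4 to 7, in this order, and -0.24 to 0.12 in the other mice without mouse 2. The brighter *Ift74* probe went the other way, with 0.19, 0.04, 0.25 and 0.17 in mice 4 to 7 and -0.38 to -0.14 in those mice. *Ift122*, *Ift57*, *Ift88*, *Ift27* and *Ift172* were also lowest in mice 4 to 7. The remaining *Ift* genes did not follow this order. *Ift140* was highest in mouse 4 (0.39), *Ift20* and *Ift46* were lowest in mouse 3 (-0.44 and -0.32), and *Ift52* and *Ift80* did not separate these mice. Mice 4 to 7 were grouped after the values had been seen, and the labels do not set them apart. *Dnahc6* and *Rsph1*, which stood out in mouse 2, had an SD of the log2 ratio of 0.13 and 0.17 among the other 9 mice.

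The adipocyte genes moved with this order. The median log2 ratio over the 11 genes was -1.80 in mouse 4, -1.64 in mouse 5, -1.07 in mouse 6 and -2.10 in mouse 7, and -0.11 to 0.56 in the others. In mouse 7 *Adipoq*, which codes for the fat hormone adiponectin, had -2.78 against -2.43 to 0.81 in the other mice. The 13 expressed genes of mesothelium and simple epithelium were low in the same mice, with medians of -1.53 to -0.99 in mice 4 to 7 and -0.66 to 0.39 in the others. The part of these genes in the values of *Tekt1*, *Spag5* and the *Ift* genes was not tested.

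**Figure D4:**
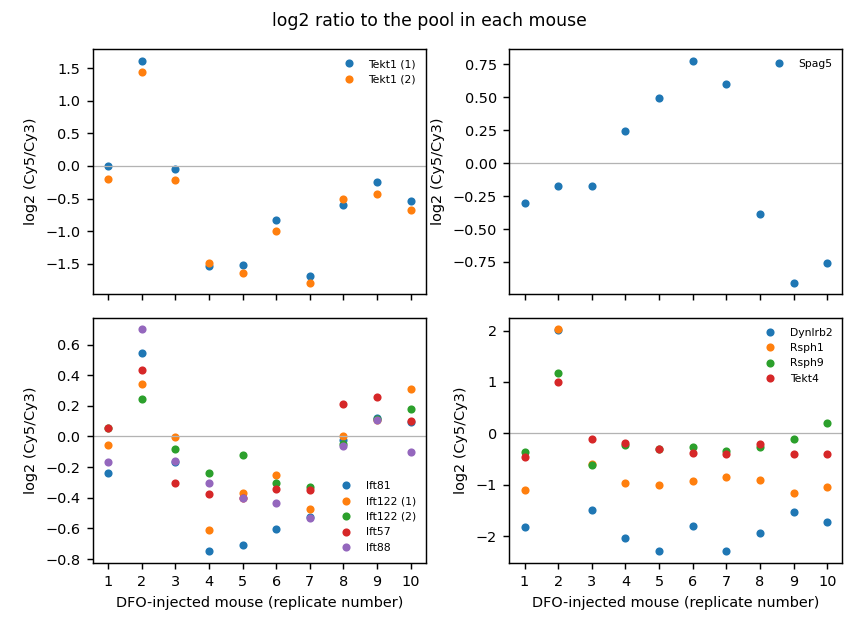
Log2 ratio to the pool in each of the 10 mice for *Tekt1* (2 probes), *Spag5*, 4 *Ift* genes and *Dynlrb2*, *Rsph1*, *Rsph9* and *Tekt4*, with separate y axes. Without mouse 2, *Tekt1* and the 4 *Ift* genes shown were lowest, and *Spag5* highest, in mice 4 to 7. All genes shown except *Spag5* were highest in mouse 2. The brighter *Ift74* probe, not shown, went the other way from these *Ift* genes in mice 4 to 7. *Ift140*, *Ift20*, *Ift46*, *Ift52* and *Ift80*, also not shown, did not follow their order.

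A difference of the log2 ratio between slides (moderated F test of limma) passed for 0 of 31 probes after adjustment (lowest adjusted p = 0.689) and for 1 of 31 at an unadjusted p under 0.05, and over all probes for 0 of 27716 after adjustment (5.17% at an unadjusted p under 0.05). On the slide that mouse 2 shared with mouse 1, mouse 1 had *Foxj1* at -1.55 and *Dynlrb2* at -1.82, so the values of mouse 2 were not shared by the mouse on its slide.

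Other genes of cilia, not in the family, were also high in mouse 2. Of 40 genes listed for motile cilia, 34 were on the array. All 34 were above background in mouse 2, and 13 to 17 in each of the other mice. The median difference over the 15 expressed ones was 1.16 in mouse 2, against -0.15 to 0.07, and 11 were highest in mouse 2. Over all expressed genes 11.5% were highest there. *Fam183b*, which multiciliated cells express, reached 2.51 in mouse 2, against -3.05 to -1.76, and *Nme5*, an axonemal protein, had 1.92 against -1.33 to -0.71. Of the 24 expressed genes of primary cilia and the BBSome, the complex that sorts cargo in cilia, 14 were highest in mouse 2, with a median difference of 0.25 against -0.17 to 0.09. *Dync2h1*, the motor of retrograde transport, was at 0.95 there, against -0.26 to -0.05. The lists were written with earlier results of these data known, so they carry no test.

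Markers of neighbouring tissues also moved in mouse 2. Of the 10 efferent duct genes 9 were above background in mouse 2 and 5 to 7 in the others, and the median difference over the 6 expressed ones was 1.30 there, against -0.51 to 0.19. *Lrp2*, the endocytic receptor megalin, had 2.28 in mouse 2 against -2.17 to -0.89. *Car2*, a carbonic anhydrase, had 1.44 against -0.55 to -0.12. *Aqp1* of the same list differed most in mouse 4, where it was low at -1.64. The other mice, mouse 2 included, lay between -1.52 and 0.54. Of the 6 expressed efferent duct genes 5 were highest in mouse 2, against 11.5% of all expressed genes. Of the 16 sperm and spermatid genes 10 were above background in mouse 2 and 3 to 6 in the others, and 6 were at background on every array. The 5 expressed ones stayed below the pool, at a median log2 ratio of -0.79 in mouse 2 against -2.05 to -1.41 elsewhere, and the sperm protamine gene *Prm1* had -1.37 in mouse 2 against -4.11 to -2.93. Of the 19 epididymal genes 11 were at background on every array, 6 were above it in mouse 2 and 5 or 6 in the others, and the median difference in mouse 2 was 0.03. In the mesothelium list the epithelial keratins *Krt8* (1.91 against -2.25 to -0.23) and *Krt18* (1.85 against -2.40 to 0.16) were high in mouse 2, while the median difference of its 13 expressed genes was -0.33. The part of these cells in the values of the family was not tested.

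**Figure D5:**
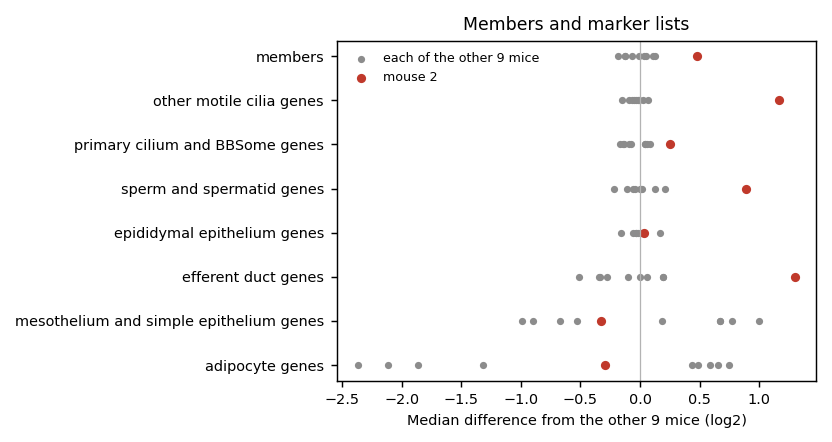
Median difference in log2 ratio of each mouse from the other 9 mice, over the expressed genes of the cilia family (members) and of each marker list. Mouse 2 is red and each of the other mice is grey. Mouse 2 lay above the other mice in the family, both other cilia lists, the sperm list and the efferent duct list, and within their range in the epididymal, mesothelial and adipocyte lists.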

How the data were processed

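Members and lists were chosen with earlier results of these data known. The authors deposited scanner files (Agilent Feature Extraction 10.7.3.1) with intensity values and a log10 ratio of Cy5 over Cy3, and a table of normalized values on a log2 scale, used as an alternative. The mean signal was corrected with normexp (offset 50) and normalized by loess within arrays, with limma 3.58.1 in R 4.3.3, and channels were normalized between arrays (Aquantile). Control spots and outlier flags were left out, and spots of a probe averaged. A probe was expressed with Cy5 well above background on at least 5 of 10 arrays, and a gene was its brightest expressed probe. Bounds were of Cy5 alone and took, per array, the higher of the lowest signal among probes well above background and the probe's own. Exact swap tests and limma's F test had a threshold of 0.05 after Benjamini-Hochberg adjustment. Python 3.11.15 was used. The genes named were, per class, up to 5 expressed genes with the largest SD, the smallest SD among *Ift* and *Spag* genes, *Foxj1*, *Dynlrb2*, *Spag11* probes and genes with several expressed probes. Of each marker list at most 3 were named.

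The variance statistic was first centred again within each swap. That form had been run on the data before its test on simulated data, where it recovered 0% of probes with a Cy5 SD of 0.3 against 0.08, and it was then replaced by centring once. On 25056 simulated probes the new form recovered 15.2% at an SD of 0.3, and 93.4% at an SD of 0.8, a size added after the first result was seen. Its false calls were 3.42% and 3.26%. The earlier form recovered 88.8% at 0.8. The slide test was tested on 27716 simulated probes, where it recovered 93 of 200 probes shifted by 2 on the log2 scale on 1 slide and made 10 other calls. The number of arrays limits the precision.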

Additional observations from a re-analysis of the deposited data

Results flagged for a closer look

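A single mouse stood apart from the other 9 in 9 of the 24 named genes with a value in every mouse, by Dixon's criterion for 10 samples, which sets the gap to the nearest mouse against the whole range. It was mouse 2, on the high side, each time. Of all 20202 expressed genes 5.40% met this criterion for any mouse, and chance alone meets it in about 1 in 20 groups. The ratio of gap to range was 0.909 for *Foxj1*, 0.876 for *Dnahc6*, 0.822 for *Rsph1*, 0.815 for *Dynlrb2*, 0.803 for *Dnahc7b* and 0.754 for *Tekt4*. It was 0.545 for *Rsph9*, 0.488 for *Tekt1* and 0.48 for *Ift88*. The median difference over the family (0.535) and the number of its probes above background (0.741) met it as well. The family was put forward with these values of mouse 2 known. Many of the 24 genes were named for a large SD over all 10 mice, which mouse 2 raised (*Dnahc6*, 0.89 with it and 0.13 without). A share above 5.40% was therefore built into the choice and carries no test.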

How the results depend on the processing

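The count of probes that varied more in Cy5 was 14 of 30. It was 5 with median centring and 0 without normalization between arrays. With no filter it was 12 of 82, where 18.3% of all probes passed. It was 15 of 30 with no background subtraction (51.5%), 14 of 28 with Cy5 above background on all arrays (55.7%), 18 of 30 with the Pitman-Morgan test (57.0%) and 18 of 29 with all 10 mice (53.3%). Without 1 of the mice it was 10 to 15, where 39.0% to 47.7% of all probes passed. With the statistic centred again within each swap, the form first run and added to the alternatives after seeing the data, it was 13 of 30, with 47.3% of all probes. With the slide as a block over all 10 mice it was 17 of 29 (41.2%). The number of genes highest in mouse 2 was 33 of 51 with no filter on dim probes, where 12.5% of all genes were. Under the other alternatives it was 14 to 21 of 25 to 31, where 4.89% to 11.2% of all were. The lowest count was 14 of 28 with the deposited values (4.89%). The highest was 21 of 31, counted over every expressed probe (10.9%). The median difference in mouse 2 was 0.61 with the log ratio of the scanner software and 0.36 to 0.60 otherwise. Slide calls were 0 under all 6 alternatives run, with 1 to 6 unadjusted. For the 24 named genes, of 162 values under alternatives 117 moved by less than 1 SD between the other mice. The sign differed in 8 values of 4 genes. *Ift52*, whose difference was over 1 SD, was at -0.0403 with log2 Cy5. *Rsph3a*, *Spag5* and *Spag9*, whose differences were under 1 SD, gave the other 7. No paired analysis was possible because all mice form 1 group. Low brightness over background limits the axonemal genes in the other mice to bounds.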
